A study of Mus musculus with 24 samples.

Results

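Prickle2 and 8 other genes of the planar cell polarity pathway were followed across brain RNA libraries from a pair of EAAT2 deletion lines. The members were Prickle1, Prickle2, Prickle3, Vangl1, Vangl2, Celsr2, Celsr3, Fzd3 and Dvl1, 9 of the 52636 gene identifiers counted. Prickle2 was selected on its measured level, which was far lower in the gfap-Cre-positive libraries than in their controls, and the other 8 were chosen by their place in the pathway. Its difference in the gfap line is therefore described with no test. Of the 9 members, 8 passed the filter on low counts and were among the 19726 genes tested, and Celsr3 did not pass it.

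Total RNA was sequenced from the brains of 24 mice, 6 in each of 4 groups, and the labels state no brain region, strain background, age or sex. The study sets neuronal against astrocytic loss of EAAT2, encoded by Slc1a2, the main glutamate transporter of astrocytes, which is also found on some axon terminals. The neuronal arm, the syn line, gave mice labelled syn-Cre+ EAAT2−/− and controls labelled syn-Cre− EAAT2+/+. The astrocytic arm, the gfap line, gave mice labelled gfapCre+ EAAT2Δ/+ and controls labelled gfap-Cre− EAAT2+/+. The Cre transgenes are not described further, and some Cre transgenes with a Gfap promoter also act in neural progenitors. The gfap Cre-positive mice thus carry 1 deleted allele by their label, whereas the label of the syn Cre-positive mice names both alleles. No group carries Cre without a deleted allele, so Cre, the transgene that holds it and the EAAT2 deletion cannot be told apart in either line.

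Planar cell polarity is the coordination of cell orientation within the plane of a tissue. At the border between neighbouring cells, Celsr cadherins bind each other, with the receptor Frizzled and its adaptor Dishevelled (Dvl) gathered on one side and the membrane protein Vangl with its cytoplasmic partner Prickle on the other. In the nervous system the same proteins act in neuronal migration, axon guidance, dendrite growth and the orientation of cilia, and Prickle2 protein is also found at synapses. Because whole tissue was sequenced, fewer cells of a type and less RNA per cell cannot be told apart in any value given here.

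Gene counts summed to between 41596313 and 69652824 per library. Levels are given in CPM, read counts relative to the size of the library, with the size scaled by the trimmed mean of M-values (TMM). Slc1a2, the targeted gene, stood between 2616 and 3235 CPM in the libraries labelled syn-Cre-positive against 3227 to 3461 in their controls, and between 3043 and 3855 against 2494 to 3980 in the gfap line. In the syn line 5 Cre-positive libraries lay below the lowest control, and in the gfap line 0 did. The gfap count rests on 1 control, gfap-Cre-negative 4, at 2494 CPM. The other controls of that line stood at 3430 to 3980 CPM, and the Cre-positive libraries at 3043 and 3249 CPM lay below all of those. Slc1a2 passed the test in neither line (log2 fold change −0.14 and −0.02, edgeR adjusted p = 1.00 in both). Its reads thus do not settle the Cre-positive labels, which are taken as given. Reads over the whole gene also count transcripts that lack only the deleted part. None of the 46 genes in 9 lists of cell type markers was at 0 throughout, and neuron, astrocyte and oligodendrocyte markers were all read in every group.

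Prickle2 (ENSMUSG00000030020) lies on the minus strand of chromosome 6 (GRCm38, 92370908 to 92706155) and spans 335 kb with 4 annotated transcripts. RefSeq (GRCm38.p6) gives it 4 transcript starts, at 0, 139, 171 and 225 kb along the gene, and the deposited count sums the reads of all of them. The 250 bases before the first and the last of these starts, and before the first start of its paralogue Prickle1, are shown as examples of the sequence before these starts; the counts do not say which start was used. Each is written 5′ to 3′ on the strand of its gene, and capitals mark GGGCGG or its reverse complement, the GC box letters, searched on both strands.
Prickle2, start 1, minus strand, chr6:92706185-92706434: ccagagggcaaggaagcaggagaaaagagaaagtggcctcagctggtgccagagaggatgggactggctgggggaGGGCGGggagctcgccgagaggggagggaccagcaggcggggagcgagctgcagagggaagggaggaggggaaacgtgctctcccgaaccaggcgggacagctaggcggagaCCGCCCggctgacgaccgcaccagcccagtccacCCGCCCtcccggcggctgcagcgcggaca
Prickle2, start 4, minus strand, chr6:92481393-92481642: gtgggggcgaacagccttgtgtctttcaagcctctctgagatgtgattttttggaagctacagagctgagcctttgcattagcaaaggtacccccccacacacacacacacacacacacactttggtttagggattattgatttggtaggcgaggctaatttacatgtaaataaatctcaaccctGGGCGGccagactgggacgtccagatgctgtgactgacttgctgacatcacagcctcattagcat
Prickle1, start 1, minus strand, chr15:93595903-93596152: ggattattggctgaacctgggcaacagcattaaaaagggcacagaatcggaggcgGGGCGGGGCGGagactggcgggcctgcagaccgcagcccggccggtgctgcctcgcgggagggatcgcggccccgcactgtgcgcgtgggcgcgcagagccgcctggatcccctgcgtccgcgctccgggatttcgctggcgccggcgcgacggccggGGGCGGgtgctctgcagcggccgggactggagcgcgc

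The window before the first Prickle2 start was 70% G and C, higher than 90.8% of 32851 RefSeq promoter windows of the same length, whose median was 52.4%. The fourth Prickle2 window was 48.4% G and C, below that median, and the first Prickle1 window 74%. GGGCGG occurred 3 times before the first Prickle2 start and 1 time before the fourth, and 3 times before the first Prickle1 start. These letters occurred in 32.7% of all windows. The letters TGACGT, the core of the cyclic AMP response element, were in no window of the 7 members matched in the table and in 6.47% of all windows. Vangl1 and Fzd3 were the members not matched. A match describes the letters of a window and not a bound site.

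Prickle2 stood at the same order of level in 3 of the groups and much lower in the libraries labelled gfap-Cre-positive. In the gfap-Cre-negative libraries its lowest, median and highest levels were 249.9, 321 and 401 CPM. In the gfap-Cre-positive libraries they were 142, 172 and 185 CPM, from 6483 to 9580 counts against 12677 to 26256. Every one of the 6 Cre-positive values was under the smallest control value. The gap between the groups was wider than the spread inside the Cre-positive group and narrower than the spread inside the controls.

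The mean Prickle2 level was 169 ± 17.2 CPM in the gfap-Cre-positive group and 323 ± 49.7 CPM in its controls (SD, n = 6 each), a ratio of 52.2%. The fitted log2 fold change was −0.94 (SE 0.08, 95% interval −1.09 to −0.78). Single Cre-positive libraries stood at 44.0 to 57.2% of the control mean, so every animal of that group was close to this ratio. Over every setting tried, with each library left out in turn among them, the value stayed between −1.004 and −0.871. No test is given for this difference because it chose the gene. For the same reason the interval and the range over settings only describe these libraries and are not read as support. As background for the other members, 0.0101% of all genes tested passed edgeR's threshold in this contrast, which is 2 genes. Prickle2 is counted among them, and nothing is read from that here; the other was Prm1, a sperm protamine gene named after its values were seen. Groups that did not overlap made up 0.198% of all genes, and 0.076% with the Cre-positive group lower.

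In the syn line, which was not used to choose the gene, Prickle2 did not differ beyond the spread between animals. The lowest, median and highest levels were 271, 293 and 310.3 CPM in the libraries labelled syn-Cre-positive and 283, 307 and 322 CPM in their controls. The groups overlapped, with 1 Cre-positive library below the lowest control. Fitted over all libraries, the Prickle2 log2 fold change came to −0.06 with an SE of 0.08 and a 95% interval of −0.21 to 0.09 (edgeR adjusted p = 1.00). The interval covers changes from −13.7% to 6.80%, and the ratio seen in the gfap line lies outside it. The difference between the Cre contrasts of the lines, syn minus gfap, was 0.88 (SE 0.11) on the log2 scale, given as a description since the gfap values enter it.

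**Figure D1:**
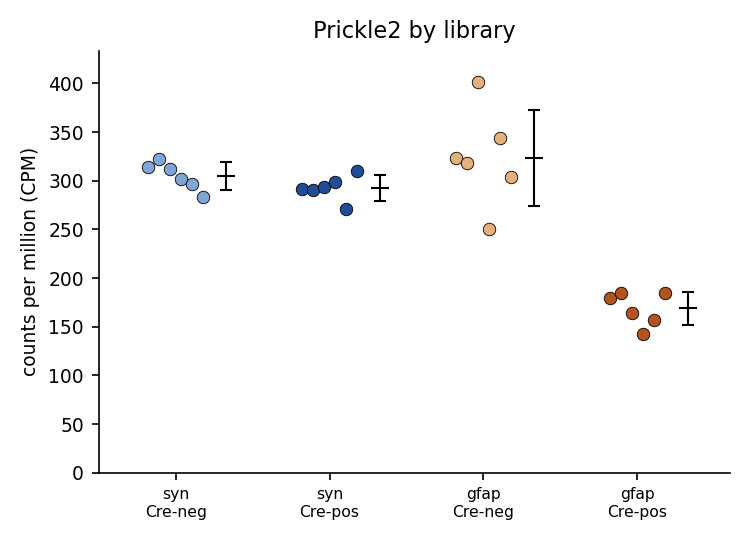
Prickle2 level in CPM (linear axis from 0) in each of the 24 libraries, by group, with the group mean and SD beside the points. The 6 gfap Cre-positive points lie between 142 and 185 CPM and the other 18 between 249.9 and 401 CPM.

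Neuron markers were read at close to equal levels in the groups of the gfap line. The summed level of 8 neuron markers ranged from 6981 to 8195 CPM in the Cre-positive libraries and from 7354 to 7947 CPM in the controls, a ratio of means of 98.2%, and 0 of 8 were called. The excitatory neuron markers summed to 103% of the control mean, the inhibitory ones to 99.5%, the astrocyte markers to 104% and the oligodendrocyte markers to 94.7%. Microglia markers summed to 104.7% of the control mean, endothelial ones to 104% and ependyma ones to 97.9%. Log2 fold changes were negative for 8 of 8 neuron, 5 of 5 oligodendrocyte, 4 of 5 inhibitory and 3 of 4 ependyma markers. They were negative for 1 of 4 excitatory, 0 of 6 astrocyte, 0 of 5 microglia and 0 of 4 endothelial markers. The 5 choroid plexus markers summed to 138%, from 51.0 to 269 CPM against 50.4 to 200.2 CPM, with all 5 values positive, a median log2 fold change of 0.37 and 0 called. The part of tissue makeup, choroid plexus included, in the Prickle2 difference was not tested.

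The question of the comparison is whether the paralogues and partners moved with Prickle2 in the gfap line. Of the 7 other members tested, 0 were called and 0 had groups that did not overlap, beside 0.0101% and 0.198% of all genes. Their log2 fold changes ran from −0.15 to 0.14 with a median of −0.06, against −0.00 for all genes tested. Of the 7 values, 5 were negative, where 51.2% of all genes were. The edgeR adjusted p was 1.00 for each of the 7.

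The other Prickle proteins carry the same LIM domains as Prickle2 and are its closest relatives. Prickle1 (ENSMUSG00000036158, chromosome 15, 93499114 to 93595891, minus strand) was the only abundant one. Its lowest, median and highest levels were 84.2, 90.7 and 95.1 CPM in the gfap-Cre-positive libraries and 89.0, 94.6 and 104.9 CPM in the controls. The ranges overlapped, with 3 of 6 Cre-positive libraries below the lowest control. The log2 fold change of Prickle1 was −0.09 (95% interval −0.20 to 0.02, unadjusted p = 0.115, edgeR adjusted p = 1.00). The interval reaches from −13.0% to 1.602%, so a fall of the size seen for Prickle2 lies outside it.

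Prickle3 (ENSMUSG00000031145, chromosome X, 7657260 to 7668186, plus strand) was scarce, at 23 to 84 counts per library. Its levels were 0.436, 0.816 and 1.30 CPM (lowest, median, highest) in the gfap-Cre-positive libraries and 0.459, 0.919 and 1.33 CPM in the controls. The groups overlapped almost fully. The log2 fold change was −0.15 (95% interval −0.66 to 0.36, edgeR adjusted p = 1.00), and the interval reaches from −36.9% to 28.6%. Leaving out 1 library moved the Prickle3 value to between −0.33, without gfap-Cre-positive 4, and −0.01, without gfap-Cre-negative 1. Prickle3 overlaps Plp2, and without a stated strand setting reads of the overlap cannot be assigned with certainty. The same limit holds for Dvl1, which overlaps Tas1r3, and for Prickle2, Vangl1 and Fzd3, which overlap genes with provisional names.

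Vangl proteins span the membrane and recruit Prickle to it. Vangl2 (ENSMUSG00000026556, chromosome 1, 172000960 to 172028444, minus strand) was the more abundant, at 12.6, 13.6 and 14.6 CPM in the gfap-Cre-positive libraries and 11.1, 13.8 and 16.9 CPM in the controls. All Cre-positive values fell inside the control range. Its log2 fold change was −0.06 (95% interval −0.25 to 0.12, edgeR adjusted p = 1.00), and it ran from −0.13, without gfap-Cre-negative 4, to −0.01, without gfap-Cre-negative 3. Vangl1 (ENSMUSG00000027860, chromosome 3, 102153583 to 102204693, minus strand) stood at 2.97, 3.32 and 3.84 CPM against 2.23, 3.15 and 3.40 CPM. The Vangl1 groups overlapped, with 2 of 6 Cre-positive libraries above the highest control. Its log2 fold change was 0.14 (95% interval −0.16 to 0.44, edgeR adjusted p = 1.00), and 0.06 without gfap-Cre-negative 4.

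Celsr2 (ENSMUSG00000068740, chromosome 3, 108390851 to 108415552, minus strand) encodes a large cadherin with a receptor-like membrane part. It was read at 248, 297 and 319 CPM in the gfap-Cre-positive libraries and at 230.3, 331 and 371 CPM in the controls. All Cre-positive values lay inside the control range, whose lowest library stood apart from the rest. The log2 fold change of Celsr2 was −0.14 (95% interval −0.31 to 0.02), and −0.23 without that library, gfap-Cre-negative 4. Its unadjusted p of 0.0815 was the smallest of the 7 members, and its edgeR adjusted p was 1.00. Over all settings the adjusted p of Celsr2 was at least 0.852, the lowest reached by any of the 7 in this contrast.

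Frizzled-3, a receptor needed for the growth of long axon tracts, and Dishevelled-1, the adaptor below it, are the members of the opposite complex. Fzd3 (ENSMUSG00000007989, chromosome 14, 65192449 to 65262463, minus strand) stood at 83.8, 103 and 116 CPM in the gfap-Cre-positive libraries and 75.1, 112 and 124 CPM in the controls, with a log2 fold change of −0.05 (95% interval −0.25 to 0.14, edgeR adjusted p = 1.00). The Fzd3 value was −0.14 without gfap-Cre-negative 4 and −0.00 without gfap-Cre-positive 4. Dvl1 (ENSMUSG00000029071, chromosome 4, 155847402 to 155859303, plus strand) stood at 85.3, 92.4 and 96.2 CPM against 84.9, 91.0 and 94.4 CPM. The groups overlapped for both genes. The Dvl1 value, 0.01 (95% interval −0.10 to 0.12, edgeR adjusted p = 1.00), was the smallest in size of the 7. Of the 7 intervals the lowest bound was the −0.66 of Prickle3. The value of Prickle2 (−0.94) lay below every one. Since that value chose Prickle2, this describes the size of change in the 7 and is no support for the Prickle2 difference.

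**Figure D2:**
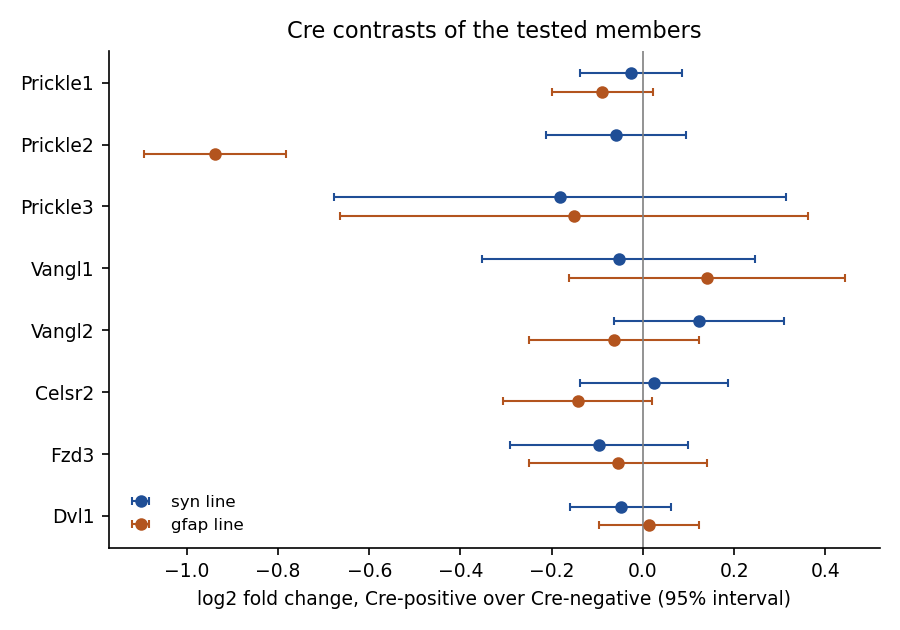
Log2 fold change of Cre-positive over Cre-negative libraries for the 8 tested members, with 95% intervals, in the syn line (blue) and the gfap line (orange). The gfap value of Prickle2, at −0.94, stands apart, and the intervals of the other 7 members cross 0 in both lines.

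In the syn line 0 of the 7 other members were called, beside 0.00507% of all genes, which is 1 gene, Aqp4, a water channel gene of astrocytes named here after its values were seen. Nor did any of the 7 have groups that did not overlap, against 0.203% of all genes. Vangl2 had the most positive value, with levels of 12.7, 14.1 and 16.1 CPM in the syn-Cre-positive libraries and 10.9, 12.9 and 15.8 CPM in the controls, and a log2 fold change of 0.12 (95% interval −0.06 to 0.31, edgeR adjusted p = 1.00). Prickle3 had the most negative at −0.18 (95% interval −0.68 to 0.31, edgeR adjusted p = 1.00). Its value was −0.29 without syn-Cre-negative 1 and −0.04 without syn-Cre-negative 5, so its rank rested on single libraries. Between these lay Prickle1 at −0.03, Vangl1 at −0.05, Celsr2 at 0.02, Fzd3 at −0.10 and Dvl1 at −0.05, all log2 fold changes. At an unadjusted p under 0.05 there were also 0 of the 7 in either line, beside 4.67% of all genes in the syn line and 2.99% in the gfap line.

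The difference between the 2 Cre contrasts was tested for the 7 other members. None passed (edgeR adjusted p = 1.00 for each, 0.0101% of all genes called), and 0 of 7 were at an unadjusted p under 0.05, where 3.5% of all genes were. The differences ran from −0.19 for Vangl1 to 0.19 for Vangl2 on the log2 scale, with intervals of −0.62 to 0.23 and −0.08 to 0.45. For Celsr2 the difference was 0.17 (95% interval −0.06 to 0.40) and for Prickle1 0.06 (95% interval −0.10 to 0.22). The labelled genotype, the line and the cells aimed at change together in this contrast and cannot be told apart.

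**Figure D3:**
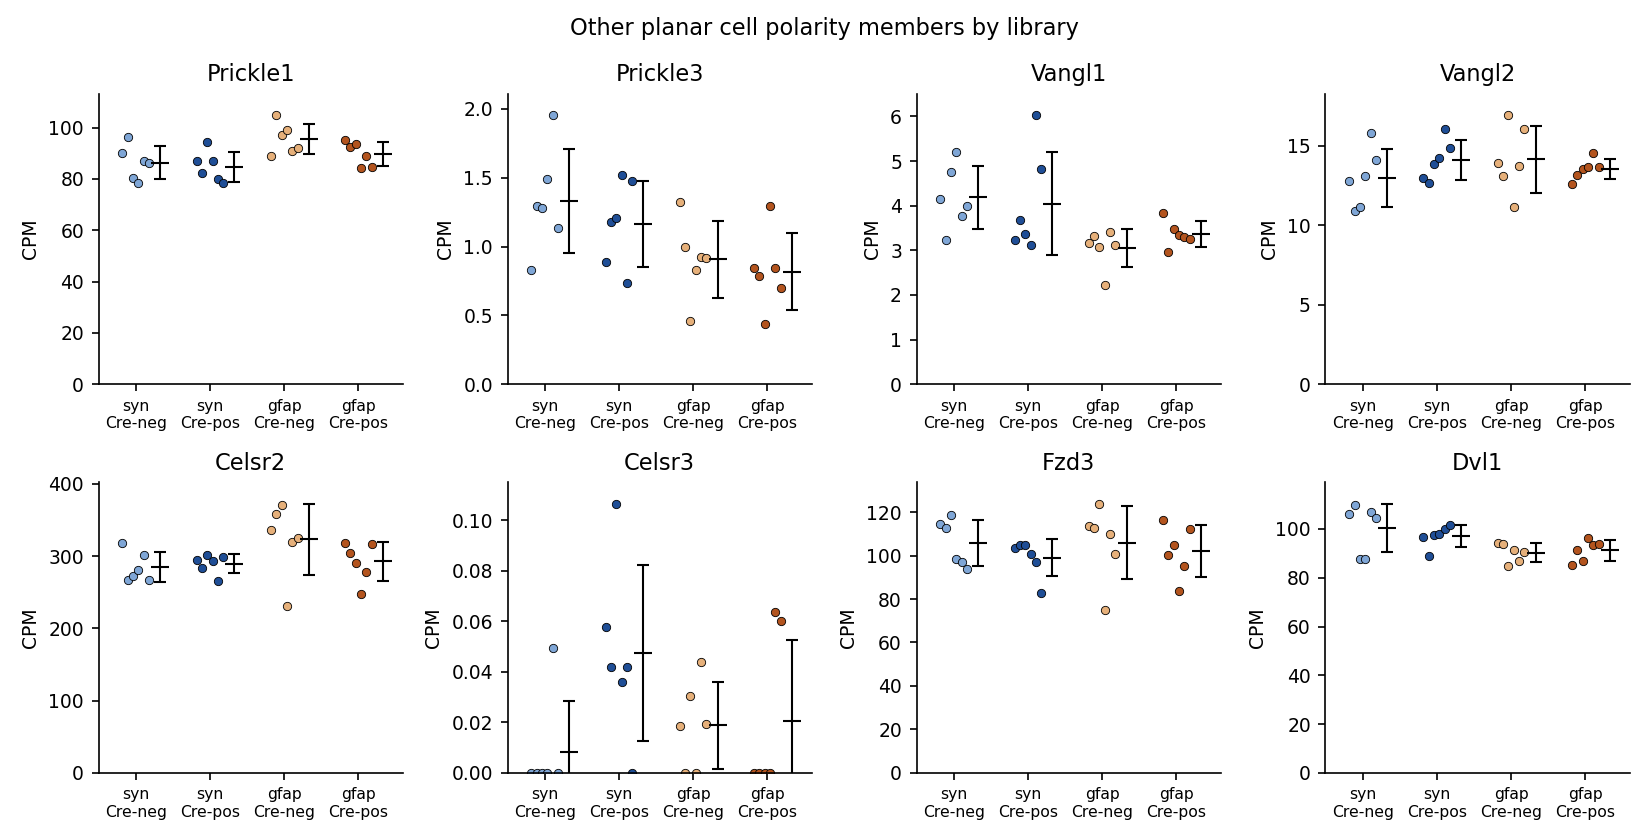
Level in CPM of the other 8 members in each library by group, each panel on its own linear axis from 0, with the group mean and SD beside the points. The gfap Cre-positive and Cre-negative points overlap in every panel, and the Celsr3 panel spans 0 to 0.107 CPM.

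The order of the members was compared per length, as CPM per kilobase of the joined exons of each gene, averaged over 24 libraries. Prickle2 was highest at 31.6, followed by Celsr2 at 25.9, Prickle1 at 20.5 and Dvl1 at 19.0 CPM per kilobase, and the library ranges of neighbours in this order overlapped. Fzd3 followed at 8.06 and Vangl2 at 1.96, each with a range apart from its neighbours. Vangl1 at 0.512 and Prickle3 at 0.215 came next with overlapping ranges. Dividing by the longest annotated transcript kept this order and raised the Prickle3 value to 0.425 CPM per kilobase.

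Within the groups this order was not the same throughout. Prickle2 averaged 35.3 CPM per kilobase in the syn-Cre-negative group, 33.9 in the syn-Cre-positive group and 37.5 in the gfap-Cre-negative group, above Celsr2 in each (24.7, 25.2 and 28.1). In the gfap-Cre-positive group Prickle2 averaged 19.6 CPM per kilobase, below Celsr2 at 25.4 and Prickle1 at 20.7 and above Dvl1 at 18.3. The member with the highest level per length in 3 groups thus stood between Prickle1 and Dvl1 in the remaining one, through the difference it was selected on.

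Celsr3 (ENSMUSG00000023473, chromosome 9, 108826320 to 108852969, plus strand), a cadherin required with Fzd3 for axon tracts, was close to unread. It had 29 counts in all 24 libraries together and at most 6 in any, and no fold is given for it. Its annotated neighbours Nckipsd and Slc26a6 had 16 and 81 counts in all libraries, whereas Ip6k2, 19.98 kb away, had 6246. The labels do not state the annotation release used for counting, and its part in these low values was not tested.

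A list of 41 other planar cell polarity genes was read beside the members, and 39 of them were tested. Fzd6, with 2 counts in all libraries, and Prickle4, with 40, did not pass the filter. In the gfap line 0 of 39 were called, with a median log2 fold change of 0.01 against −0.00 for all genes. At an unadjusted p under 0.05 there were 2 of 39, where 2.99% of all genes were. In the syn line 0 of 39 were called as well, with a median of −0.00, and 1 was at an unadjusted p under 0.05 where 4.67% of all genes were.

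By role, the 4 tested core genes other than the members (the Celsr1, Dvl2, Dvl3 and Ankrd6 genes) had log2 fold changes of −0.00 to 0.17 in the gfap line. The 5 genes of the Fat and Dachsous system, a parallel pair of giant cadherins and their regulators, were all between −0.11 and −0.06. The 9 ligands and co-receptors ran from −0.40 to 0.24, and the 21 intracellular partners and effectors from −0.11 to 0.19. None of these 4 roles held a called gene in either line or in their difference.

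The genes of that list with the smallest unadjusted p are given as values only. In the gfap line Mapk8, the stress kinase JNK1 that acts below Dishevelled, stood at 110.4 to 119 CPM against 117 to 128 CPM (log2 fold change −0.11, edgeR unadjusted p = 0.00844, edgeR adjusted p = 1.00). Ankrd6, the mouse counterpart of the fly gene diego, stood at 37.7 to 51.1 against 34.0 to 44.5 CPM (0.17, edgeR unadjusted p = 0.0316, edgeR adjusted p = 1.00). The co-receptor gene Ror1 (0.24, edgeR unadjusted p = 0.114) and the ligand gene Wnt11 (−0.40, edgeR unadjusted p = 0.147) followed. None of these passed over all genes.

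In the syn line the ligand gene Wnt7a stood at 10.2 to 15.8 CPM against 7.35 to 15.4 CPM (log2 fold change 0.28, edgeR unadjusted p = 0.0382, edgeR adjusted p = 1.00). Wnt5b, another ligand gene (0.34, edgeR unadjusted p = 0.110), and the ubiquitin ligase gene Smurf1, whose product degrades Prickle1 (−0.10, edgeR unadjusted p = 0.119), came next. Mapk8 had −0.05 (edgeR unadjusted p = 0.188), and none of the 4 passed over all genes. The range of every one of these genes overlapped between the syn groups.

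Genes around Prickle2 on chromosome 6 were read for a change shared by the region. Within 1 Mb of the gene 47 others are annotated and 23 were tested, 15 with established and 8 with provisional names. In the gfap line 0 of the 23 were called. Of the 15 established genes, 14 had log2 fold changes between −0.09 and 0.16. The highest was that of Wnt7a, which is also on the pathway list above. The genes with provisional names ran from −0.36 to 0.39, and the genes at these ends averaged 0.20 and 0.245 CPM. Adamts9, a secreted protease gene and the nearest tested one upstream at 66.5 kb, stood at 8.76 to 10.6 CPM in the gfap-Cre-positive libraries and 6.37 to 10.96 CPM in the controls (0.08, 95% interval −0.18 to 0.35, edgeR adjusted p = 1.00).

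The remaining gene, Trh, the thyrotropin-releasing hormone gene 126 kb downstream, had a fitted log2 fold change of −1.79 (95% interval −3.32 to −0.27, unadjusted p = 0.0230, edgeR adjusted p = 1.00). It rested on 2 to 21 counts per library in the gfap-Cre-positive group and 6 to 134 in the controls. The highest control, gfap-Cre-negative 4, alone held 134 counts and the other 5 held 6 to 24, so the groups overlapped. On the same region in the syn line, Trh had a value of 0.81 and 0 of 23 genes were called.

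**Figure D4:**
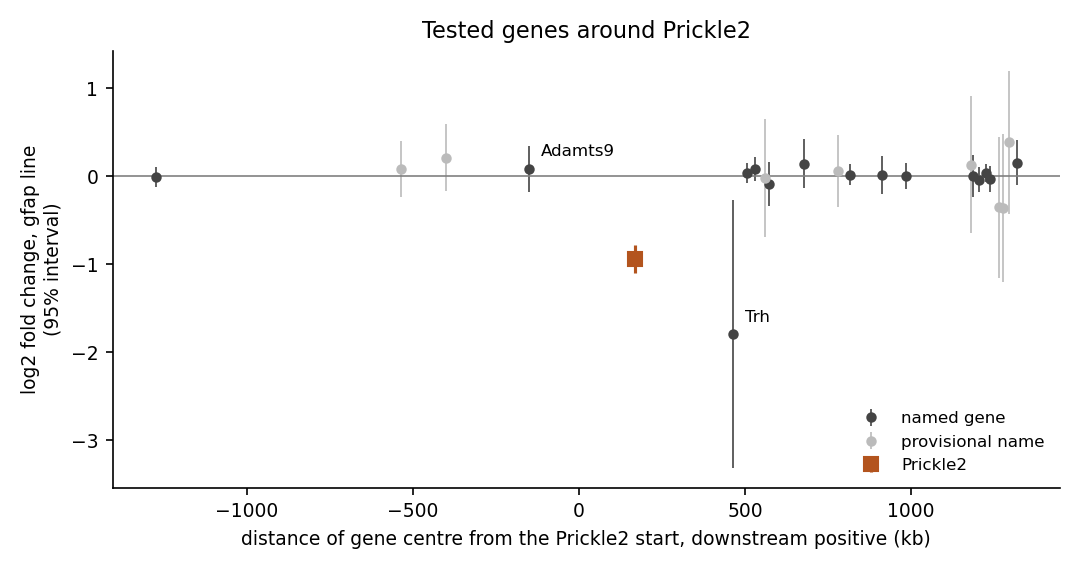
Log2 fold change of Cre-positive over Cre-negative libraries in the gfap line, with 95% intervals, for Prickle2 (square) and the 23 tested genes within 1 Mb, against the distance in kilobases of each gene's centre from the Prickle2 start, downstream positive. Prickle2 lies at −0.94, Trh at −1.79 with a wide interval, and the other established genes between −0.09 and 0.16.

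Animals within a group also differ, and the members were compared with Prickle2 in this variation after each group mean had been subtracted from log2 CPM. This leaves out the group difference that chose Prickle2. Over 24 libraries and 7 relations, Celsr2 had Pearson r = 0.81 (permutation p = 2.6e-04, 0.00182 after Benjamini-Hochberg adjustment over the 7 relations) and Spearman rho = 0.63 (permutation p = 0.00348, adjusted 0.0122). Fzd3 had r = 0.76 (permutation p = 5.5e-04, adjusted 0.00192) and rho = 0.68 (permutation p = 0.00117, adjusted 0.00819). Libraries with more Prickle2 than their group also tended to have more Celsr2 and Fzd3.

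The libraries farthest from the median of Prickle2 were gfap-Cre-negative 4, at −0.36, and gfap-Cre-negative 3, at 0.33 on the centred log2 scale. Without these 2, r was 0.64 for Celsr2 and 0.57 for Fzd3. Within single groups of 6 libraries the Celsr2 value ran from 0.10 in the syn-Cre-negative group to 0.96 in the gfap-Cre-positive group. The Fzd3 value ran from −0.44 in the syn-Cre-positive group to 0.92 in the gfap-Cre-negative group, so the relation did not hold in every group.

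The paralogue Prickle1 had r = 0.09 (permutation p = 0.689, adjusted 0.689) and did not pass. Prickle3 (r = −0.26), Vangl1 (0.14), Vangl2 (0.21) and Dvl1 (−0.22) did not pass either, with adjusted permutation p from 0.458 to 0.534. Without the 2 farthest libraries r turned to −0.14 for Vangl1 and −0.44 for Vangl2. Over all genes tested the central 90% of r, from the 5th to the 95th percentile, ran from −0.58 to 0.65. Celsr2 was higher than 99.2% and Fzd3 than 98.1% of tested genes.

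All points of these relations share a library and its scaling factor. The summed level of 4 excitatory neuron markers, centred in the same way, had r = 0.74 with Prickle2, that of 8 neuron markers 0.05 and that of 5 inhibitory neuron markers −0.50. In gfap-Cre-negative 4 the excitatory sum was 4813 CPM, against 5747 to 6609 in the other 5 controls of that line. The part of tissue makeup in the relation of Prickle2 with Celsr2 and Fzd3 was not tested.

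**Figure D5:**
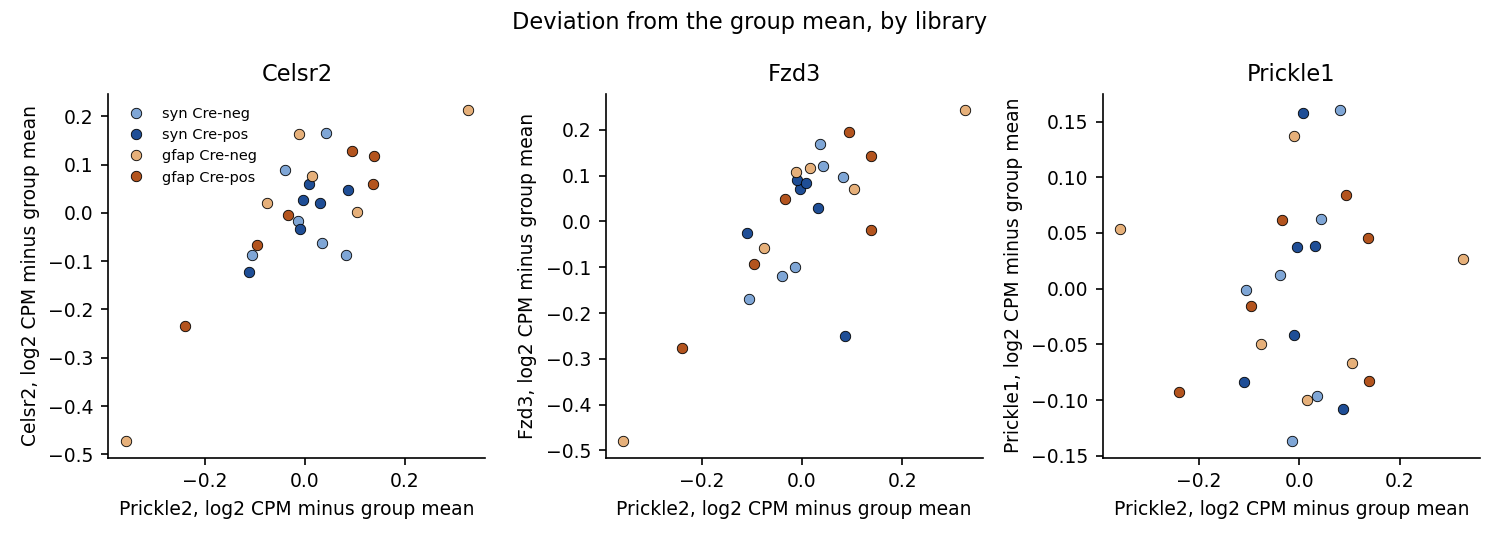
Celsr2, Fzd3 and Prickle1 against Prickle2 in 24 libraries, each as log2 CPM minus the mean of its group, coloured by group. Celsr2 (r = 0.81) and Fzd3 (r = 0.76) rise with Prickle2, with gfap-Cre-negative 4 at the lower left, and Prickle1 (r = 0.09) does not.

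The 5 genes above 1 CPM whose centred levels were most like Prickle2 over the 24 libraries were Zzz3 (r = 0.92), Add2 (0.92), Pde4dip (0.91), Mrtfb (0.91) and Lyst (0.91). Without the 2 farthest libraries their r lay between 0.78 and 0.86. In the gfap Cre contrast the same 5 genes had log2 fold changes between −0.03 and 0.04. The median over all genes tested was −0.003 in that contrast, and 0.0101% were called. Nothing on the Prickle2 difference is therefore read from these 5 values.

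The Cre-negative groups of the lines, both labelled EAAT2+/+, give the members' levels in controls. Among these controls Prickle2 averaged 304.7 ± 14.1 CPM for syn and 323 ± 49.7 CPM for gfap (SD over 6 mice), a log2 difference of −0.09, with overlapping ranges and no test, since the gfap controls helped to choose it. Of the 7 other members, 3 were called, a share of 42.9% beside 31.2% of all genes, which is near the background. They were 2 higher and 1 lower in the syn controls, where 14.6% and 16.6% of all genes were. At an unadjusted p under 0.05 there were 5 of 7, against 41.9% of all genes. Of the 7, 0 had groups that did not overlap, against 11% of all genes (5.54% higher and 5.43% lower).

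Vangl1 was higher in the syn controls, at 3.24, 4.07 and 5.21 CPM (lowest, median, highest) against 2.23, 3.15 and 3.40 CPM in the gfap controls. In this gene 5 of 6 syn controls lay above the highest gfap control. The log2 difference was 0.46 (SE 0.15, edgeR adjusted p = 0.0198), and it was not called without syn-Cre-negative 4 (edgeR adjusted p = 0.0597). Dvl1 was higher as well, at 87.8, 105 and 110.0 against 84.9, 91.0 and 94.4 CPM (0.15, SE 0.05, edgeR adjusted p = 0.0306). Prickle1 was lower, at 78.3, 86.5 and 96.3 against 89.0, 94.6 and 104.9 CPM (−0.15, SE 0.05, edgeR adjusted p = 0.0421), a call lost in 17 of 30 settings, among them RLE and upper-quartile scaling, DESeq2, limma-voom and 12 that leave out 1 library (adjusted p up to 0.140 over all settings, whichever of edgeR, DESeq2 or limma gave it). The Dvl1 call was lost with no filter and without syn-Cre-negative 1, 2, 5 or 6 or gfap-Cre-negative 3 (edgeR adjusted p up to 0.0922).

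Prickle3 (0.55, edgeR adjusted p = 0.0881), Celsr2 (−0.18, edgeR adjusted p = 0.0789), Vangl2 (−0.13, edgeR adjusted p = 0.298) and Fzd3 (−0.00, edgeR adjusted p = 0.986) were not called. Celsr2 was called with limma-voom and without syn-Cre-negative 1 or gfap-Cre-negative 4, and Prickle3 without syn-Cre-negative 1 or gfap-Cre-negative 1. The log2 difference of Prickle3 was the largest in size of the 7 and rested on 30 to 79 counts per library.

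Of the 39 other pathway genes 13 were called between the controls, 8 higher and 5 lower in the syn line. This share, 33.3% beside 31.2% of all genes, is near the background. Both remaining Dishevelled genes were higher, Dvl2 by 0.48 and Dvl3 by 0.33 (edgeR adjusted p = 9.7e-05 and 0.00682). So were, among others, the effector genes Fuz (0.55) and Intu (0.35), the formin gene Daam2 (0.50), the scaffold gene Scrib (0.29) and the kinase gene Rock1 (0.25). Lower in the syn controls were Wnt7a (−0.47), Fjx1 (−0.35), which encodes a kinase that acts on Fat cadherins, the synaptic scaffold gene Dlg4 (−0.20), Mapk8 (−0.15) and Rac1 (−0.12). The control groups did not overlap for Dvl2, Fuz, Intu, Daam2, Fjx1 and Dlg4, where 11% of all genes had such groups.

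Markers of several cell types differed between the same controls. All 4 ependyma markers were called higher in the syn controls (summed 16.2 to 34.1 against 6.25 to 12.9 CPM), as were all 5 choroid plexus markers (99.2 to 5279 against 50.4 to 200.2 CPM) and 4 of 5 oligodendrocyte markers. Of the 8 neuron markers 7 were called, and all 8 had negative values with a median of −0.22. In the remaining lists 3 of 4 excitatory, 1 of 5 inhibitory, 2 of 6 astrocyte, 1 of 5 microglia and 2 of 4 endothelial markers were called. Beside these counts, 31.2% of all genes were called, 14.6% higher and 16.6% lower in the syn controls. Their part in the differences of Vangl1, Dvl1, Prickle1 and the other pathway genes was not tested, and line, background strain and handling cannot be told apart here.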

How the data were processed

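The authors deposited 1 file of raw counts per gene for each of 24 brain RNA libraries, not normalized, 6 per group. Per the submitters' processing notes the mm10 build was used, with DESeq2 1.6.3, HTSeq 0.6.0 and HISAT2; a HISAT2 version, the annotation release and the strand setting were not given in the sources used here. The 5 summary lines in each file name no gene and were removed first; among them, reads that fell in no gene made up 7.52 to 11.1% of a syn file and 4.47 to 6.37% of a gfap file. The syn-Cre-negative 5 file had the fewest gene counts. It also had the largest shares of reads ambiguous between genes (7.46%) and of reads not aligned (4.71%). Symbols and coordinates come from GENCODE M21 (GRCm38), which matched 52403 of 52636 identifiers (99.6%). All 60 within-group pairs of libraries differed by more than sampling of reads gives (chi-square divided by the number of genes, 7.23 to 153.7, against 1 for sampling alone).

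From the deposited counts, genes were filtered with filterByExpr (19726 left), scaled by TMM and tested with the robust quasi-likelihood F test of edgeR 4.0.16 under R 4.3.3, in 1 model of 4 groups with 20 residual degrees of freedom. P-values were adjusted by Benjamini-Hochberg over all genes tested and called under 0.05. The 95% intervals rest on 1 estimate of spread per gene, shared by all 4 groups and moderated over genes. They do not measure the spread of a single group. For Celsr2 the SE was 0.079 in both lines. Its SD was 13.3 and 21.1 CPM in the syn groups, and 26.8 and 49.5 CPM in the gfap groups. Where the gfap groups vary more, as for Celsr2 and Prickle2, the gfap intervals may be too narrow. The fit was tested on simulated data. Correlations used log2 CPM with a prior count of 2, group means removed, and 100000 two-sided permutations of libraries within groups. Alternatives were RLE and upper-quartile scaling, limma-voom with quality weights (limma 3.58.1), DESeq2 1.42.0, no filter, a minimum of 1 CPM in 6 libraries, each line fitted alone, and each library left out. Replicate numbers follow accession order and only name a library.

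The members and lists were chosen with earlier results of these data known. The rule for named genes took the members, Slc1a2, called genes of the pathway list and up to 4 more per Cre contrast by smallest p, established genes within 1 Mb of Prickle2 or overlapping a member, and the 5 genes most correlated with Prickle2. Of these genes, those within 1 Mb are named singly only where a value is discussed. Prm1 and Aqp4 fall outside this rule, as do Nckipsd, Slc26a6 and Ip6k2 and the Celsr1 gene, which were chosen after the values were seen. A gene that the rule takes is not reported here. Protein sequences were not analysed here.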

Additional observations from a re-analysis of the deposited data

Results flagged for a closer look

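In 32 groups of 6 libraries (8 tested members in 4 groups), 3 held a library whose gap to the nearest other was large for the range of its group, where chance alone marks about 1 group in 20. Vangl1 in gfap-Cre-negative 4 was the lowest of its group at 2.23 CPM, with the next library at 3.07 and the highest at 3.40 CPM. Celsr2 in the same library was the lowest at 230.3 CPM, with the next at 319.9 and the highest at 371 CPM. That library also held the lowest Prickle2 level of the gfap controls, 249.9 CPM, the lowest excitatory marker sum (4813 against 5747 to 6609 CPM) and the highest oligodendrocyte marker sum (4100 against 3224 to 3929 CPM). Its inhibitory neuron sum was the highest as well (1001 against 915 to 959.5 CPM), and its astrocyte sum (1640 against 1683 to 1828 CPM) and microglia sum (247.5 against 254 to 276.5 CPM) were the lowest. Fzd3 in syn-Cre-positive 6 was the lowest of its group at 82.9 CPM, with the next library at 97.0 and the highest at 105 CPM. Without gfap-Cre-negative 4 the gfap Cre contrast called 2 genes, as with it.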

How the results depend on the processing

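No paired analysis was possible because replicate numbers follow accession order and the labels tie no libraries across groups. Of 976 member fold changes recomputed for 32 results, 947 kept their direction if called and their side of the threshold, 24 lost a call and 5 gained one; 0 called values reversed, and 32 values that were never called changed sign. The calls lost and gained were all between the Cre-negative groups. There the number of members called was 3 and ran from 1 to 4 with 1 library left out, and it was 1 without syn-Cre-negative 4, 5 or 6 or gfap-Cre-negative 3. The Prickle1 call was lost without syn-Cre-positive 6, syn-Cre-negative 3 to 6, gfap-Cre-positive 2, 5 or 6 and gfap-Cre-negative 2 to 5. Over all genes, the syn Cre contrast called 1 gene, 5 with no filter, 15 with DESeq2, 8 with limma-voom and 2 with each line fitted alone, and from 1 to 4 with 1 library left out, the highest without gfap-Cre-negative 4. Other libraries whose absence raised that count were syn-Cre-positive 5 and gfap-Cre-positive 3, to 3 each, and syn-Cre-positive 1, syn-Cre-negative 3 and 5 and gfap-Cre-positive 4 and 6, to 2 each. Of the genes called between the Cre-negative groups 2884 were higher and 3277 lower in the syn line, 3061 and 2734 with RLE scaling and 3219 and 2288 with upper-quartile scaling. Without the 2 libraries farthest from the Prickle2 median, r was −0.14 for Vangl1 and −0.44 for Vangl2. The cause of these changes was not tested. Depth limits Prickle3, at 23 to 84 counts per library, and Celsr3, at 0 to 6.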
